A study of Drosophila melanogaster with 2 samples.

Results

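The promoter summits described here lie just inside genes: each is the highest point of a binding peak and falls 0 to 500 bp downstream of the nearest transcription start site (TSS) of a protein-coding gene. Members were chosen from the authors' conservative peak set by the distance of the summit alone, and summits that lay within 500 bp of both starts of a head-to-head gene pair were left out. Of 6829 peaks in the set, 6790 lay on the main chromosome arms, and 456 of these (6.72%) were members. They belonged to 435 genes, 21 of which held 2 members. Before the head-to-head pairs were left out there were 621 such summits, so 165 were removed.

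The data came from 1 group with 2 biological replicates of chromatin immunoprecipitation and sequencing (ChIP-seq) in Drosophila melanogaster. The strain, CG9932-GFP, carries an insertion that makes the product of CG9932 as a fusion with eGFP, and whole embryos 8 to 24 h old were used. Chromatin was sheared by sonication to 200 to 800 bp and recovered with an antibody against GFP, so every value concerns the tagged protein in a mixture of all embryonic cell types. What drives the fusion gene, its dose and the state of the native gene are unstated in the labels. The embryo age was read from the source name, because the separate age label holds a number far outside embryonic life. No control sample and no reads were analysed here, and read depth is unknown.

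A promoter is the stretch of DNA around a TSS where RNA polymerase II assembles, and in flies many sequence-specific factors and core promoter proteins bind just before the start. Sequence just after the start is transcribed: it holds the 5′ UTR, often the beginning of the first intron, and the zone where polymerase commonly pauses before it moves into the gene. A gene can have several alternative starts, so a site downstream of one start can be upstream of the next one.

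The sequences of 2 kinds in the members' windows are shown before the values. A window reached 100 bp either side of a summit. The first is the word ACAGTGG, which was picked because it was the 7-letter sequence most in excess at summits outside promoters. It was in 28 member windows (6.14%), against 1.70% of windows placed at the same typical offset, 88 bp downstream, of all 19253 protein-coding TSS. The second is the DNA replication-related element (DRE, TATCGATA), a core promoter element of many housekeeping genes, found in 19 member windows (4.17%) and in 2.06% of the TSS windows. Each line gives 30 bases of dm6 from RefSeq, 5′ to 3′ on the strand named, with the match in capitals; the matches were sought on both strands, a match describes letters only, and the word and the DRE share no overlapping sequence in these lines.
CG18622, word, chr3R:16986699-16986728, minus strand: ctatactgtgaaACAGTGGagcgtggcttg
ph-p, word, chrX:2137817-2137846, plus strand: gaaccaagagtACAGTGGgtcaatttttta
egh, word, chrX:2593851-2593880, plus strand: gccggccaagtACAGTGGccaccggctagg
sqh, word, chrX:6224484-6224513, minus strand: tgagtcgtactcACAGTGGgcgcccgataa
RpL26, DRE, chr3L:18898850-18898879, plus strand: gatgacagtgtTATCGATActagctgaatt
RpS7, DRE, chr3R:30209009-30209038, minus strand: tcctgcaactgTATCGATAgtatcgcacaa
cnc, DRE, chr3R:23190146-23190175, minus strand: ttacagtgcacTATCGATAtggaggaccca
Karybeta3, DRE, chr3R:4649356-4649385, plus strand: cagtcgcgtttTATCGATAacggcggagca

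The genes in these lines have varied roles. The product of ph-p is a Polycomb group protein, egh makes an enzyme of glycosphingolipid synthesis, and sqh makes the regulatory light chain of non-muscle myosin. RpL26 and RpS7 make proteins of the cytosolic ribosome, and cnc makes a stress-response transcription factor. Few matches of the word sat at the summit. It was centred 64 bp from the summit at CG18622, 87 bp at ph-p, 75 bp at egh and 97 bp at sqh, and over the 28 members with it the median gap was 62 bp, with 4 matches within 30 bp. Of the 19 members with a DRE, 7 had the match within 30 bp of the summit. It lay almost on the start at RpS7, 3.5 bp before it, and 10.5 bp before the start at RpL26, whereas at cnc it lay 258.5 bp downstream of the start.

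Downstream summits were close to the start and far fewer than upstream ones. The median distance was 88.5 bp, with quartiles at 31 and 255.5 bp. The 0 to 50 bp stretch held 164 members, 51 to 150 bp held 132, and 151 to 500 bp held 160. Upstream of a start, with the same treatment of head-to-head pairs, there were 1837 summits, so members made up 19.9% of one-sided promoter summits (95% Wilson interval 18.3 to 21.6; intervals here and below cover counting error over peaks only). The set derived from replicate 1 alone held 418 such summits and that of replicate 2 alone 256, so without replicate 1 the number was lower by over 1.5 times. The number fell across the start itself, from 157 summits 1 to 25 bp upstream to 92 at 0 to 24 bp downstream. From 201 bp on, each 50 bp held 20 to 28 members, so the far part of the zone was level rather than falling. The 3 members at 0 bp lay at Tl, which encodes the Toll receptor, at Blos3 and at CG6656, with signals of 127, 127 and 90.1, and the nearest summits on the other side of the start, at −1 bp, lay at CG5001, BRWD3 and ND-13B with signals of 503, 140 and 101. At the outer limit, members at rno (499 bp), CG7203 (499 bp) and CG7702 (496 bp) had signals of 135, 102 and 95.7, and summits just outside it at qtc (502 bp), SREBP (503 bp) and Smox (506 bp) had 357, 372 and 118.

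**Figure D1:**
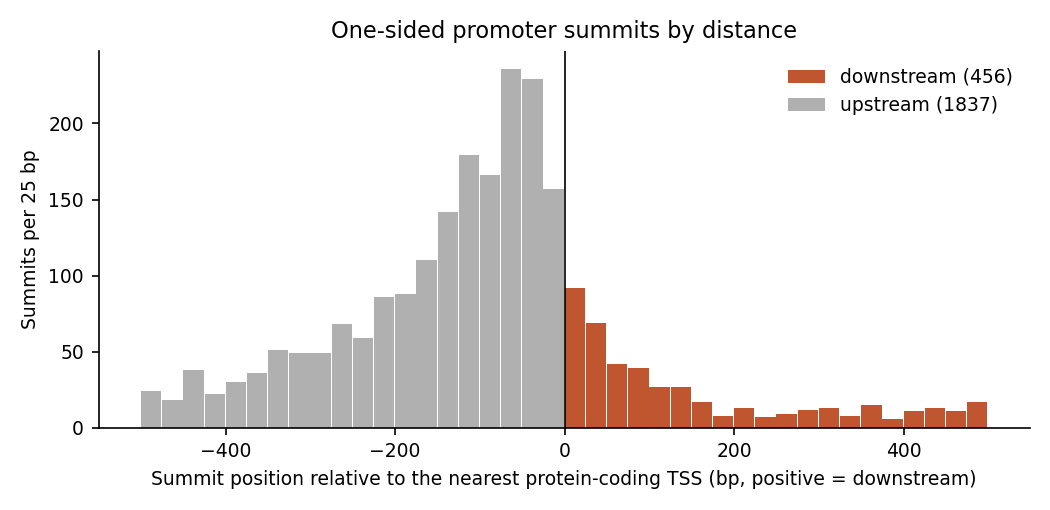
Number of one-sided promoter summits per 25 bp (y axis) by signed distance in bp to the nearest protein-coding TSS (x axis), with upstream summits in grey and the 456 downstream members in orange. Counts are highest, at 236, from 75 to 51 bp upstream, and are 157 in the last 25 bp before the start. They are 92 in the first bin after it, fall further to 17 at 150 to 174 bp and level off beyond.

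Peaks downstream of a start were weak for this set. Signal is the value of the authors' peak caller and has no stated unit. It is compared here within 1 list, except that very weak members were defined by the median of the ranked list. The median signal of members was 115, with quartiles of 86.1 and 201 and a range of 2.05 to 2718. Upstream summits had quartiles of 128 and 359. The median was 293 at head-to-head promoters, 124 outside promoters and 161 in the whole set. Of the members, 145 (31.8%) exceeded that overall median of 161, against 1150 of the 1837 upstream summits (62.6%). The difference was −30.8 percentage points (95% Newcombe interval −35.5 to −25.9). In the set of 1 replicate alone, split at its own median signal instead of 161, the difference was −25.9 points without replicate 2. Without replicate 1 it was −16.1 (−22.4 to −9.51). Among the peaks above 161 alone, split again at their own median, it was −7.14 points (−15.4 to 1.49) and no longer called. The stretch nearest to the start was no stronger than the rest, with 30.5%, 30.3% and 34.4% above 161 in the bins 0 to 50, 51 to 150 and 151 to 500 bp. Among the 100 strongest peaks of the set were 2 members and 35 upstream summits.

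Fewer members were found in each replicate on its own. Peaks of the set derived from replicate 1 alone overlapped 301 members (66.0%), and peaks of the set derived from replicate 2 alone overlapped 223 (48.9%). Both sets covered 202 members (44.3%), where 58.8% of all peaks on the arms were covered by both. Upstream summits were covered by both in 1302 cases (70.9%), and the difference was −26.6 points (−31.5 to −21.5). Neither set covered 134 members (29.4%), against 187 upstream summits (10.2%). Summits outside promoters were close to members, with 46.2% covered by both sets and 28.7% by neither. Coverage differed with signal. Of the members above 161, both sets covered 141 of 145 (97.2%), and of the upstream summits 1090 of 1150 (94.8%), so nearly all were covered and a gap could hardly show. At or under 161 they covered 61 of 311 members (19.6%) and 212 of 687 upstream summits (30.9%), a difference of −11.2 points (−16.6 to −5.42), in a split made after the values were seen.

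The strongest members were led by GstE13, which encodes a glutathione S-transferase. Its signal was 2718, and in the replicates' own ranked lists the overlapping peak had 1602 (replicate 1) and 1113 (replicate 2). Its summit lay 67 bp from the start in the joint set, and at 70 and 73 bp in the replicates. CG18622 (FBgn0038460) on 3R had a signal of 1698, with 857 and 869 in the replicates, and a summit 201 bp from the start, at position 16986649. The summit at ph-p (FBgn0004861) on X lay 453 bp from the start, at position 2137918, with a signal of 1282 and replicate values of 723 and 614. A second and weaker ph-p summit lay 54 bp from another start, with a signal of 183. The gene ph-p has a near-identical neighbour, ph-d, and the treatment of reads that match both is unstated.

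The other strong members lay at genes of varied function. Trl encodes the GAGA factor, a DNA-binding protein that opens promoters; its peak had a signal of 801 at 111 bp, with 463 and 326 in the replicates. The start of pAbp, the gene of the cytoplasmic poly(A)-binding protein, had a summit 489 bp inside the gene with a signal of 806, and the replicates placed it at 490 and 489 bp. The translation initiation factor gene eIF3c had a summit at 1 bp with a signal of 948, but the replicates put it on opposite sides of the start, at 7 and −9 bp. The dynein intermediate chain gene sw had 615 at 38 bp. The ceramide kinase gene Cerk had 667 at 211 bp, egh had 784 at 363 bp, and Cftr had 1047 at 188 bp. Also among the 20 strongest members in both replicate sets were CG2811 (1334), Ufsp1 (1233), CG4497 (1221), CG9399 (1192), CG8128 (1020), CG30349 (725), zf30C (724), CG3588 (722), CG5171 (641) and RpL26 (638).

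Members beside a further start of the same gene had stronger peaks than the others. A later TSS of the same gene lay within 500 bp downstream of the summit at 84 members (18.4%, 15.1 to 22.2), which are therefore downstream of one start and upstream of another. These peaks had a median signal of 240, and 52 of them (61.9%) exceeded 161. The 372 members with no later start had a median of 107, and 93 (25%) exceeded 161. The difference was 36.9 points (95% Newcombe interval 25.3 to 47.4), in a comparison chosen with the values known. Both replicate sets covered 58 of the 84 (69.0%) and 144 of the 372 (38.7%). GC content moved with this split, with a median of 40.8% around the summits with a later start and 47.8% around the others, and its part in the signal was not tested. GstE13, CG18622, CG2811, Ufsp1, CG4497, CG9399, eIF3c, CG3588, RpL26 and sw, all named above, were the 10 strongest members with a later start.

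**Figure D2:**
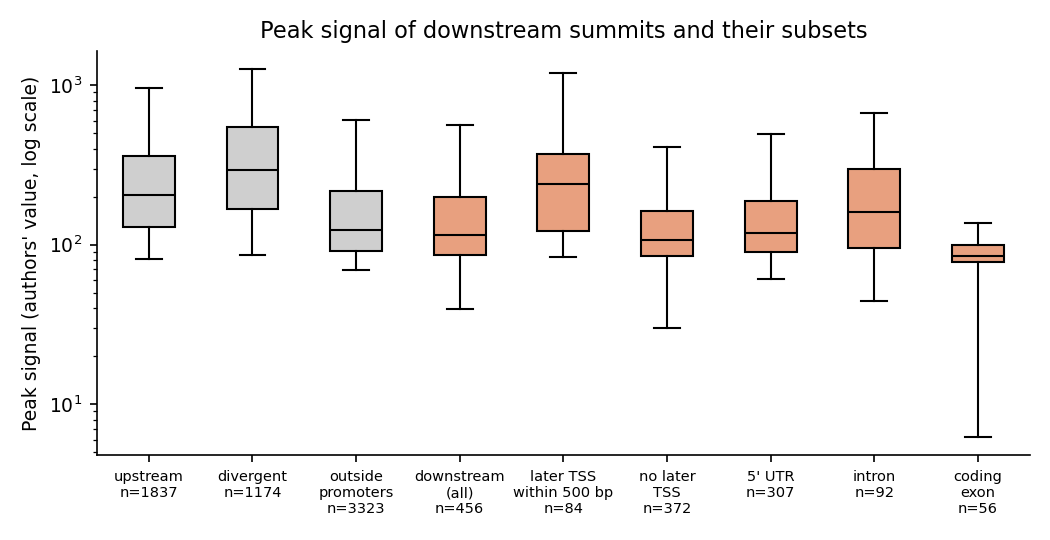
Peak signal on a log axis for upstream, head-to-head (divergent) and non-promoter summits (grey) and for downstream members and their subsets (orange); boxes span the quartiles with the median line, and whiskers reach the 5th and 95th percentiles. Members with a later TSS sit at a median of 240 against 107 for those without, and intronic members at 160 against 85.2 for coding exons.

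Signal differed with the place of the summit in the transcript. The 5′ UTR held 307 members (67.3%), introns held 92 (20.2%, 16.7 to 24.1), coding exons held 56 (12.3%), and 1 lay past the end of the short transcript of CG44812. At the same typical offset of 88 bp, 64.0% of all annotated protein-coding starts have 5′ UTR, 10.7% intron and 25.3% coding exon. This single offset is a rough match, because 160 members lay 151 to 500 bp from the start. At 0 to 50 bp introns held 0 of 164 members, against 0.530% of starts. At 51 to 150 bp they held 11 of 132 (8.33%), against 11.0%, so neither bin had an intron excess. In the 151 to 500 bp bin, introns held 50.6% of members and coding exons 26.2%, where the offsets of all starts (340 bp) give 31.2% and 47.9%. In that farthest bin alone, intronic summits were therefore more frequent, and coding ones less frequent, than the gene structure gives. No test of the difference was made.

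**Figure D3:**
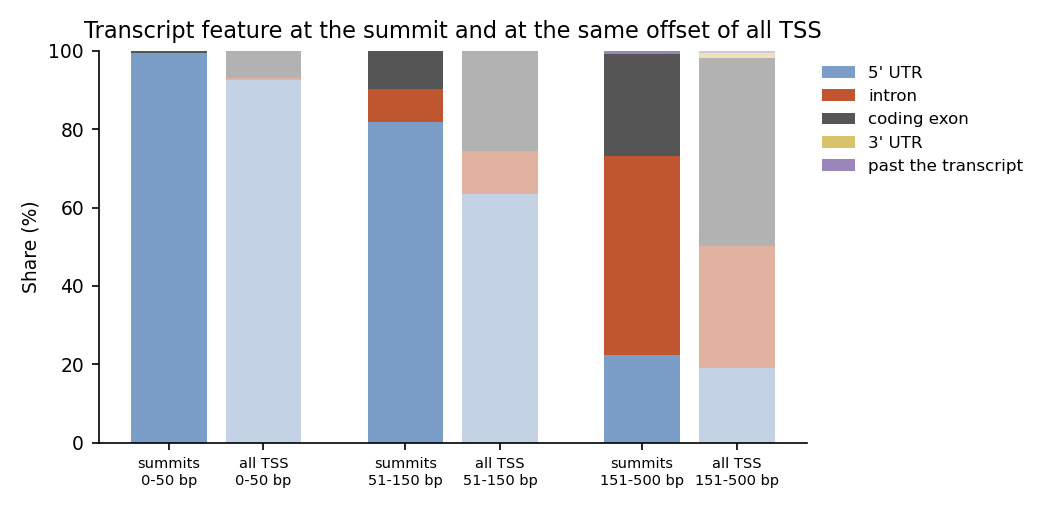
Share in percent (y axis) of members whose summit lies in each transcript feature (solid bars), beside the feature at the bin's median offset of all annotated protein-coding TSS (paler bars), for the 3 distance bins on the x axis. In the farthest bin 50.6% of summits are intronic, against 31.2% of all starts.

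Intronic members had a median signal of 160 (quartiles 95.7 and 296), 5′ UTR members 118 (90.2 and 187) and coding-exon members 85.2 (77.5 and 100). Signals above 161 were seen at 45 of 92 intronic members (48.9%) and at 3 of 56 coding-exon members (5.36%), a difference of 43.6 points (95% Newcombe interval 30 to 54.2), a comparison chosen after the values were seen. Among the stronger peaks alone, split again at their own median and with 3 coding-exon members left, it was 46.7 points (−11.1 to 60.9) and not called. Those 3 lay at Got2 (293), a mitochondrial aminotransferase gene, uri (293) and lawc (207). Both replicate sets covered 60 intronic members (65.2%, 55.1 to 74.2) but 6 coding-exon members (10.7%, 5 to 21.5). Each replicate's own ranked list gave the same order, with medians of 99.0 and 78.2 for intronic members and 45 and 42 for coding-exon members in replicates 1 and 2. The coding-exon summits lay a median of 262 bp from the start and the intronic ones 355 bp. Within the 151 to 500 bp bin, 40 of 81 intronic members (49.4%) exceeded 161, and 0 of 42 coding-exon members did, which allows a share of up to 7.14% (3 counts). GC content again moved with the split, at a median of 39.3% around intronic and 59.7% around coding-exon summits, and its part was not tested.

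Some members met several stricter criteria. These were coverage by both replicate sets, both replicates' summits downstream, and no further protein-coding start ahead or beside. The last meant no later start of the gene and no start of another protein-coding gene within 500 bp. Starts of noncoding genes were not considered, and 119 members met all the criteria. In 73 of these the peak did not reach the start, and 54 of the 73 were intronic, 17 lay in a 5′ UTR, 1 lay in a coding exon and 1 was the summit at CG44812. Coverage by both sets favours intronic over coding-exon members, as given above, and without that criterion the members with no start in the peak numbered 143, of which 76 were intronic, 35 lay in a coding exon and 31 in a 5′ UTR. After ph-p, the strongest were Cftr (FBgn0039207) on 3R with its summit at position 24543237, CG8128, pAbp, egh, Cerk and CG5171, with the signals given above for each. Next came dlg1, which encodes a scaffold protein of septate junctions and synapses (594 at 433 bp), Eip63F-1, an ecdysone-induced gene (566 at 474 bp), and scramb2 (563 at 370 bp).

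The side of the start repeated between replicates for most members, and less so close to it. A peak of the replicate's ranked list overlapped 456 members in replicate 1 and 454 in replicate 2, and the strongest overlapping one was used. Both replicates' summits were downstream at 369 of the 454 members (81.3%), both were upstream at 28 (6.17%), and they were split at 57 (12.6%). By bin, both were downstream at 59.8% of members at 0 to 50 bp, 90.8% at 51 to 150 bp and 95.6% at 151 to 500 bp. At 0 to 50 bp both were upstream, against the class, at 19 members (11.6%). The median gap between the replicates' summits was 20.5 bp, close to the 21.5 bp at which the median member of the nearest bin sits. For 0 to 50 bp, then, the side of the start was within the spread between replicates at 28.7% of members, those whose replicates were split. Tl is one of these, with replicate summits at 0 and −2 bp, and so are Moe, which encodes Moesin (−18 and 9 bp), and cora, a septate junction gene (−13 and 59 bp). The peak itself covered the start at 63.8% of members, and at 98.8%, 87.9% and 8.12% in the 3 bins.

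**Figure D4:**
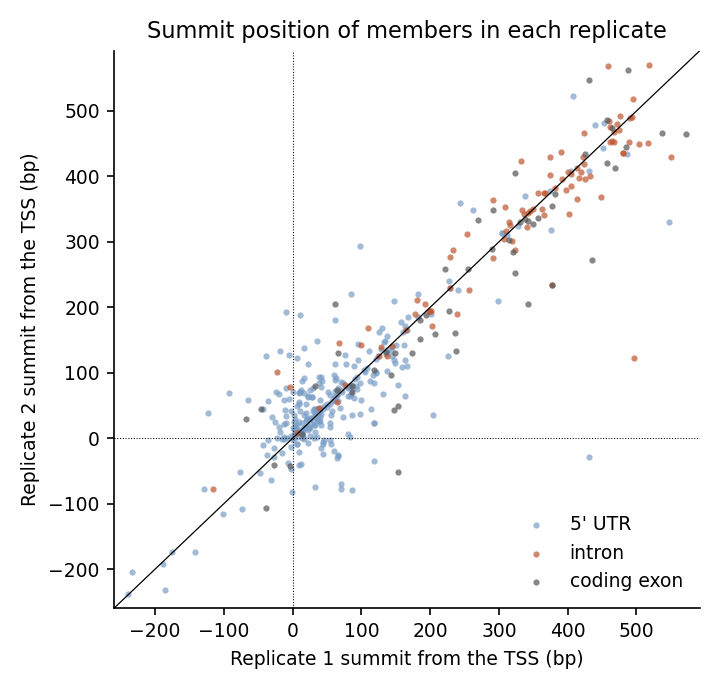
Summit position relative to the TSS in bp in replicate 1 (x axis) and replicate 2 (y axis) for members with a peak in both ranked lists, coloured by transcript feature, with the line of equality. Points lie along the line from 151 bp on, where 95.6% are downstream in both, and scatter across the dotted zero lines near the start.

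A small set of very weak members lay beside stronger peaks. Signals under 27.7, the median of the long ranked list from which the conservative set comes, were found at 21 members (4.61%), against 2.36% of all peaks on the arms and 0.980% of upstream summits. Each of the 21 had a stronger summit of the same set within 500 bp, at a median gap of 203 bp (199 to 333 bp), which was so at 16 of the other 435 members (3.68%). In Abcd3, for example, a peak with a signal of 191 at 19 bp was accompanied by one with 5.12 at 221 bp, and in CG8112 a peak with 91.9 at 21 bp by one with 2.39 at 267 bp. RpL26, just above the 27.7 limit, had a second summit with a signal of 32.2 at 3 bp from its other start, 200 bp from the main one. Both replicate sets covered 8 of the 21, by the rule of any overlap. Without the 21, both replicates' summits were downstream at 363 of 433 members (83.8%) and upstream at 16 (3.70%).

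Other peaks stood at the same starts in a minority of cases. A conservative summit was also present within 500 bp upstream of the same TSS at 81 members (17.8%), rising from 11.6% in the nearest bin to 26.2% in the farthest. The bins may be compared only roughly, because a summit near the start leaves less room for another. Cftr, CG8128, pAbp, CG5171, Dp and rno each had such an upstream summit. Counting the far longer ranked list, 34.4% of members had one.

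In sequence, member windows were richer in GC than upstream ones and held the DRE, Motif 7 and the GATA motif less often. Median GC content was 46.8% in member windows, 44.3% in windows at 88 bp of all starts and 38.3% in upstream windows. The 10 motifs were compared with upstream summits, with intervals at a joint level of 95% (99.5% for each). The DRE was in 4.17% of member windows and 9.25% of upstream windows, a difference of −5.09 points (−7.93 to −1.19). In the set of replicate 2 alone, that is without replicate 1, it was −5.25 points (−8.70 to 0.250), and among the stronger peaks alone −2.59 (−7.63 to 6.28), neither of them called. Motif 7, another core promoter motif, was in 5.70% and 11.8% (−6.06 points, −9.34 to −1.73), and the GATA factor motif GATAAG in 6.80% and 11.8% (−4.96, −8.44 to −0.425). In windows of all starts, with no peaks involved, these elements also differed by position: from 119 bp upstream to 88 bp downstream the DRE went from 5.29% to 2.06%, Motif 7 from 4.66% to 4.12% and GATAAG from 14.4% to 8.24%. Without replicate 2 the GATA difference was −0.860 and without replicate 1 −2.53 points, and the Motif 7 difference was −4.95 and −5.17, none of them called. The CA repeat ACACACAC was the 1 motif in excess, in 36 member windows (7.89%) against 2.72% (5.17 points, 2.03 to 9.56), and it was in 4.09% of the TSS windows at 88 bp and 3.75% of those upstream. This difference was called in every setting run, at 2.58 to 5.97 points. By bin from near to far, the CA repeat was in 3.66%, 10.6% and 10% of member windows. TSS windows at the bins' offsets gave 3.71%, 4.13% and 5.60%. Members at 0 to 50 bp thus showed no excess over their TSS windows, and the bins were not tested singly. The strongest carriers of the repeat were pAbp, Sik3 (537), which encodes a salt-inducible kinase, CG11151 (536), woc (245) and dbo (225).

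The other 6 motifs had intervals that included 0. GAGAG, the GAGA factor motif, was in 25.7% of member and 27.1% of upstream windows (−1.45 points, −7.54 to 5.28), and in 32.9%, 23.5% and 20% of members in the 3 bins, where TSS windows gave 24.2%, 21.6% and 22.3%. Its 5 strongest carriers were eIF3c, Eip63F-1, CG4098 (510), rudhira (407) and cnc (364). The core promoter E-box CAGCTG was in 14.7% and 12.2% (2.50, −2.16 to 8.11), with 19.5%, 10.6% and 13.1% in the 3 bins and 13.4%, 11.8% and 10.6% in their TSS windows. CG4497, CG9399, sw, CG4098 and CG17982 (395) were its strongest carriers. Motif 1, bound by M1BP, was in 1.97% and 3.05% (−1.07, −2.86 to 1.88). Motif 6 differed by −0.488 points (−1.31 to 1.44), the Zelda motif CAGGTAG by 0.552 (−0.507 to 2.99) and the AP-1 motif TGANTCA by 0.687 (−1.92 to 4.52).

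Element content changed with distance as the start was left behind. The DRE was in 7.93%, 3.79% and 0.625% of windows in the 3 bins from near to far, and TSS windows at the bins' offsets gave 6.10%, 2.02% and 0.322%. In 9 of the 19 members with a DRE the match itself lay downstream of the start, against 19 of 170 upstream summits with one. This contrast is largely set by the choice of summits, because matches were sought within 100 bp of them. GAGAG, for example, lay downstream of the start at 71.8% of members with it and 9.84% of upstream summits with it. The word ACAGTGG was in 4.88%, 5.30% and 8.12%, against 2.08%, 1.70% and 2.37% of TSS windows, with lower Wilson bounds of 2.49%, 2.59% and 4.81% in members. An excess over TSS windows was not particular to members: the word was in 6.14% of them, in 8.00% of upstream summits and in 8.11% of all peaks on the arms. It was in 10 of 92 intronic members (10.9%, 6.01 to 18.9), close to the 9.66% of summits outside promoters on which it was picked, and in 0 of 56 coding-exon members, which allows a share of up to 5.36% (3 counts). The DRE was in 18 of 307 members in a 5′ UTR (5.86%) and in 1 of 92 intronic ones.

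**Figure D5:**
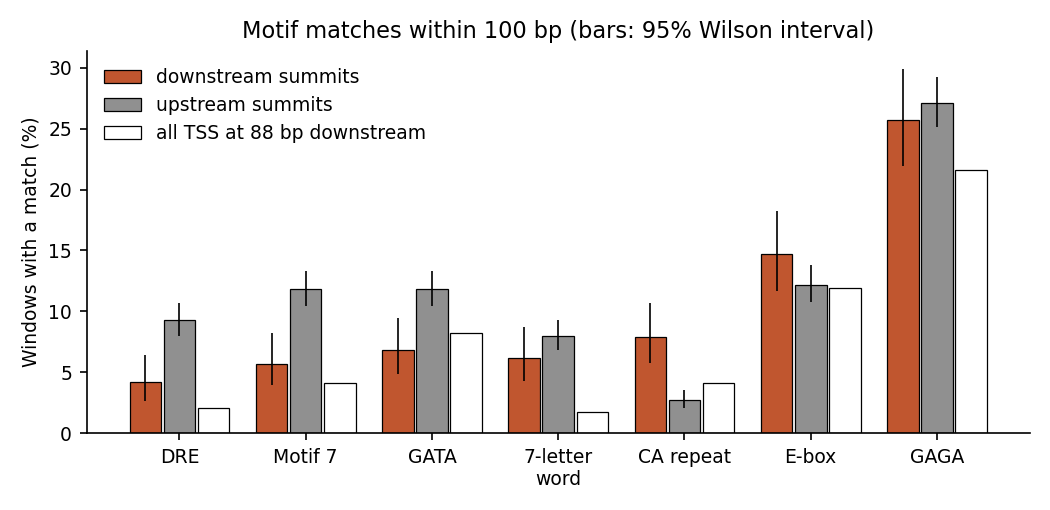
Share in percent of windows of 100 bp either side that hold each motif (y axis; motifs on the x axis) for downstream members, upstream summits and all protein-coding TSS at 88 bp downstream; error bars on summit shares are 95% Wilson intervals. The DRE, Motif 7 and GATA bars are lower in members than upstream, and the CA repeat bar is higher, at 7.89% against 2.72%.

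By gene function, each of the lists examined held few members. Of all 13945 protein-coding genes on the arms, 3.12% held a downstream member and 12.1% an upstream summit, and a list is set beside these shares with no test. Among 86 cytosolic ribosomal protein genes, 7 (8.14%) held a member and 25 (29.1%) an upstream summit. The 7 were RpL26 (638), RpS7 (443), RpL36A (296), RpS30 (255), RpL12 (169), RpS9 (110) and RpS15 (82.0), and all their main summits lay within 100 bp of a start. Of 73 mitochondrial ribosomal protein genes only mRpL36 (73.1) held a member, and of 48 proteasome genes none did. Beside a share of 3.12% over all genes, lists of this size are too short to show a lack.

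Regulators of chromatin and transcription gave the strongest listed members. The chromatin and insulator list had 4 of 33 genes, Trl (801), pita (270), BEAF-32 (254) and CTCF (131), of which the last 3 make insulator proteins. Elongation and pausing factors had 3 of 25, Trl and BEAF-32 again and hyx (244), which makes a subunit of the Paf1 complex. The Polycomb and trithorax list had ph-p and Trl among 29. The heat shock gene Hsp83, which makes the chaperone Hsp90, had 410 at 120 bp with replicate values of 197 and 203. The cell cycle list held 1 of 41, the E2F partner gene Dp (410 at 376 bp).

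Members at listed signalling and tissue genes had signals from 64.6 to 366, where 31.8% of all members exceeded 161. Of 25 EGFR and Ras pathway genes, 4 held a member: the ligand genes grk (98.4), vn (72.8) and spi (64.6), and RasGAP1 (93.8), which makes a negative regulator of Ras. None of these 4 was covered by both replicate sets. The BMP ligand gene dpp had 83.2 at 63 bp, the Wnt receptor gene fz2 had 113 at 93 bp, the segmentation gene en had 90.2 at 2 bp, and E(spl)malpha-BFM of the Notch pathway had 79.7. The glypican gene dally, which like fz2 is on the Wnt and Hedgehog list, had 126 at 41 bp. Of 19 glia and septate junction genes, cora (163) and Gli (123 and 122 at its 2 summits) held a member. Of the 8 Hox genes none held a member, and 2 held an upstream summit, in a list too short to set beside the 3.12% of all genes. The neuronal list had 4 of 33, led by the synaptic adhesion gene Nrx-1 (366 at 106 bp, with 178 and 183 in the replicates), then Fas2 (165), robo2 (109) and Fas3 (98.0). The muscle list had if (182), an integrin gene, Act57B (82.1) and Mef2 (79.4) among 30, and the epidermis and trachea list had shot (109) and dpy (98.1) among 21. Of 179 chemosensory receptor genes, 1 held a member, Or22c (121), and 1 an upstream summit.

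Members were spread over the arms. Of the one-sided promoter summits, the members' share ran from 17.6% on X to 23.8% on 3L, with 108 members on 3L, 92 on 3R, 89 on 2R, 85 on 2L and 82 on X. Arm 4 had 1 peak in the set and no member.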

How the data were processed

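The authors deposited peak lists on dm6: long ranked lists, and shorter sets that passed an irreproducible discovery rate cutoff, made from each replicate alone and, as conservative and optimal sets, from both, per the deposited file descriptions. The aligner and peak caller were not given in the sources used here. Each deposited list gives a signal (the caller's value), a score (scaled from the discovery rate) and a summit offset (another column, in bp); 33 further value columns of the series files were not used.

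Summits were placed against protein-coding starts of Ensembl release 115 (BDGP6.54, dm6 coordinates). Shares carry Wilson intervals and differences Newcombe intervals at 95% (99.5% per motif over 10 motifs), called where 0 lay outside. Overlap needed 1 bp, and a share of 0 in coding-exon members carries the limit of 3 counts. Counts of 0 in gene lists carry no limit. Low members were counted against the ranked list's median signal. Peaks are not replicates, so intervals cover counting error only. The text names, as nearest genes, those of the 20 strongest members in both replicate sets, the 2 strongest of each of 20 lists (8 symbols were not found, and 1 list is not reported here), the 3 nearest to 0 and to 500 bp, and the 5 strongest with each of 3 motifs; others were named after their values were seen, as were all members of short lists. Members, lists, the 3 distance bins and the 7-letter word were chosen with earlier results of these data known. Classification, overlap, motif search and intervals were tested on simulated data. Software was matplotlib 3.10.9, scipy 1.17.1, numpy 2.4.6 and pandas 2.3.3 under Python 3.11.15.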

Additional observations from a re-analysis of the deposited data

How the results depend on the processing

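Of 181 recomputed values, 134 were counted as the same. Counts had to stay within 1.5 times, shares and medians within the main interval, and differences had to keep their call. Strong peaks were those above the median signal of the peak set used in each setting. Differences called in neither run were counted as the same even where the sign changed. Examples were GAGA, at −1.45 in the main run and 3.46 points with a promoter limit of 200 bp, and Motif 1, at −1.07 and 0.577 without replicate 1. With peaks above the set's median signal only, 145 members remained, at 11.2% of one-sided summits; the strong-peak difference was −7.14, the DRE difference −2.59, Motif 7 −5.72, GATA −5.02 and the intron minus coding exon difference 46.7 points, none with an interval that left out 0, and the difference in coverage by both replicate sets turned to 2.46, while the intron share was 31.0%, start coverage 50.3% and the share with a later start 35.9%. A promoter limit of 200 bp gave a share of 17.1%, a median of 48.0 bp and shares of 5.28% intronic, 91.0% covering the start and 28.8% with a later start; a limit of 1000 bp gave 696 summits, 27.2%, 422 bp, 45.5%, 34.9%, 9.91% and a GATA difference of −2.23 (not called). Canonical starts gave 16.1% intronic, 58.7% covering and 31.2% with a later start. Keeping head-to-head pairs gave 17.9%, 67.0 bp, 15.9%, 72.1%, 28.8% and −3.32 for GATA (not called). With the set of 1 replicate alone standing in for the joint set, the values ranged over 256 to 418 summits, 15.8 to 18.6%, 74.5 to 101 bp, −25.9 to −16.1 points for strong peaks, −5.25 to −5.00 for the DRE (not called without replicate 1), −5.17 to −4.95 for Motif 7 and −2.53 to −0.860 for GATA (neither called), 23.0 to 30.1% intronic, 55.9 to 65.8% covering and 19.1 to 24.6% with a later start. The cause of these shifts was not tested, beyond the changed limits and fewer peaks that the settings bring. Motif 7, GATA and CA repeat differences were rerun after seeing the data. A motif window of 50 bp gave −2.42 for Motif 7, not called. The optimal set, peak centres and leaving out peaks under the ranked list's median (added after seeing the data) changed 1 call each among the differences run, GATA, at −3.47, −4.56 and −4.64, and the contrast of members with and without a later start was called in every setting run, at 19.4 to 48.2 points. Depth is unknown, the set was 1 experiment, and no control was analysed here. No paired analysis was possible because there was 1 group.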
